A study of Mus musculus with 5 samples.

Results

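Wnt ligands, Frizzled receptors and their secreted antagonists were followed in mouse epiblast stem cells exposed for 3 h to PD0325901, CHIR99021, LIF or all of these together. The members were all probes whose symbol in the platform annotation begins with Wnt, Fzd, Dkk or Sfrp followed by a number, which gave 49 of 25697 probes, for 35 of 16593 named genes. They comprised 28 probes for 19 Wnt genes, 11 probes for 8 Frizzled genes, 6 probes for 4 Dickkopf genes and 4 probes for 4 Sfrp genes. A probe was counted as detected on an array when its deposited detection p-value, a rank of its signal among negative-control beads, was under 0.01.

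Wnt proteins are secreted lipid-modified ligands that bind Frizzled receptors together with the co-receptors Lrp5 and Lrp6. In the canonical branch this stops GSK3 from marking beta-catenin for destruction, so that beta-catenin reaches TCF/LEF factors on target genes, and GSK3 inhibitors act at that step. Sfrp proteins carry a Frizzled-like domain and can bind Wnts outside the cell, whereas Dickkopf proteins such as Dkk1 and Dkk4 bind the Lrp co-receptors. In the mouse embryo Wnt signalling in the posterior epiblast is required for the primitive streak, and epiblast stem cells are pluripotent cells of this post-implantation kind.

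The cells belonged to the E3 line (hybrid genetic background) and were grown with 5 ng/ml FGF2 in a serum-replacement medium (KSR) on inactivated CF1 mouse embryonic fibroblasts. Semiconfluent cultures then spent 3 h in KSR medium containing 1 uM PD0325901 (PD, which inhibits MEK, the kinase that activates ERK), with 3 uM CHIR99021 (CH, an inhibitor of GSK3), with 1000 U/ml of the cytokine LIF, with all 3 agents at these doses (PCL), or without supplements (untreated). There was 1 array per condition (single colour, Illumina beads), so a difference between conditions has no replicate check. An error beside a log2 difference is the bead-level standard error, which covers the measurement on the array only. Precision is limited by having 5 arrays.

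The arrays were alike in the number of detected probes, from 10130 to 10981 (39.4% to 42.7%), but signals were lower on the treated arrays, whose 75th percentiles were 137 to 153, than on the untreated array (178). Levels below are therefore log2 intensities after background correction and quantile normalization. The agents moved their known targets. Egr1, an immediate early target of ERK, fell with PD (effect -2.87 ± 0.13), as did Dusp6, Etv4, Etv5 and Spry4 (-1.42 to -0.63). Axin2, a Wnt feedback gene, rose with CH (1.55 ± 0.12), and Socs3, a STAT3 feedback gene, rose with LIF (2.13 ± 0.13), as did the 3 probes of Stat3 (0.88 to 1.03). The words rose and fell are kept for probes that passed in an additive model of the 5 arrays, fitted with limma, at a Benjamini-Hochberg adjusted p under 0.05 over all 12049 probes detected on at least 1 array. In that fit PD, CH and LIF are 3 terms fitted together, and each agent is on 2 arrays (alone and in PCL) and off 3. An effect is the term of 1 agent with the other terms in the fit. It is given in log2 units with the standard error of the fit. The 1 residual degree of freedom of the fit is how far PCL lies from the agents' summed effects. Because probes of like intensity share 1 spread in the fit, its p-values rank probes and do not measure variation between cultures.

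Of the 49 probes, 23 were detected on some array (17 genes) and 14 on every array (10 genes). The detected share of 46.9% was that of all probes on the platform (46.9%). By family, this held for 9 of 11 Frizzled probes, 4 of 6 Dickkopf probes, 2 of 4 Sfrp probes and 8 of 28 Wnt probes. Among the ligands, Wnt3, Wnt5a, Wnt5b and Wnt8a had a probe detected on every array. Wnt4 was detected with PD and with LIF only. The other 14 Wnt genes had no detected probe, namely Wnt1, Wnt2, Wnt2b, Wnt3a, Wnt6, Wnt7a, Wnt7b, Wnt8b, Wnt9a, Wnt9b, Wnt10a, Wnt10b, Wnt11 and Wnt16. Among the receptors, Fzd2, Fzd6, Fzd7 and Fzd10 had a probe detected on every array, Fzd3 was missed with PD, Fzd4 was detected with CH only and Fzd8 with LIF only, and Fzd1 was not detected. Of the Dickkopf and Sfrp genes, Dkk3 and Sfrp1 were detected on every array and Sfrp2 on all but the PD array. Dkk1 was detected with CH and PCL, Dkk4 with CH only, and Dkk2, Sfrp4 and Sfrp5 on no array.

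**Figure D1:**
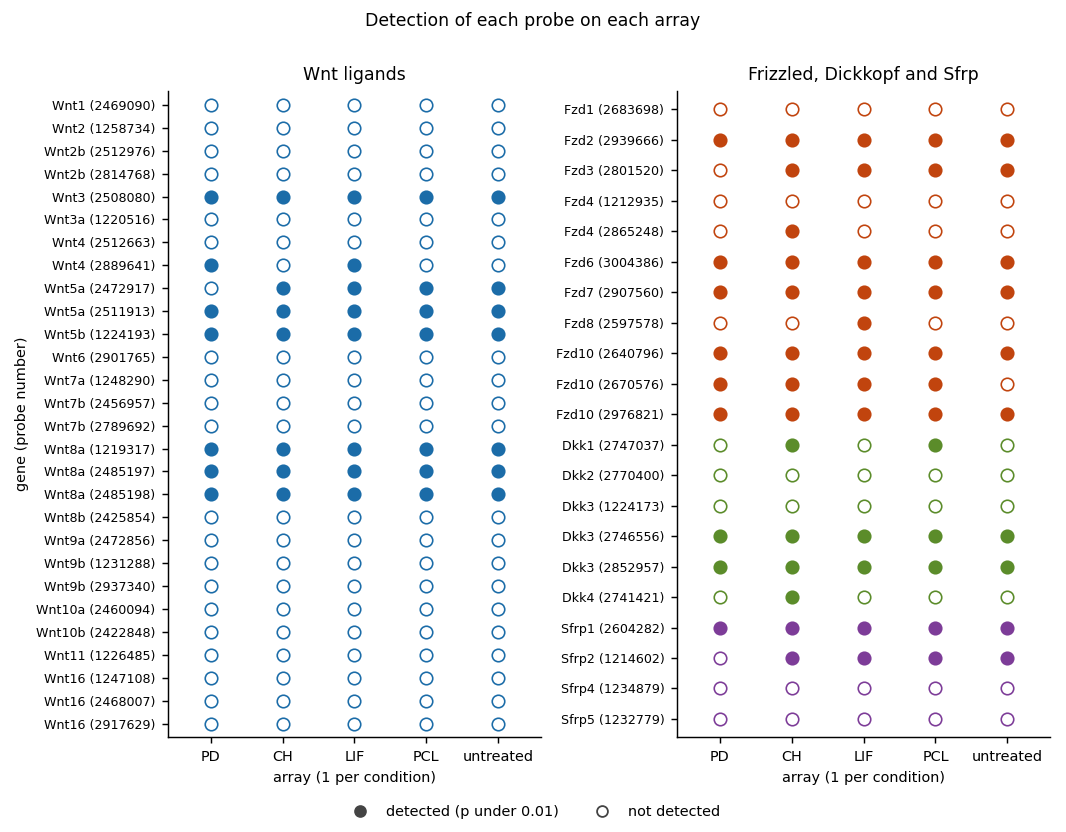
Detection of the 49 probes (rows, gene with probe number) on the 5 arrays (columns), with filled circles for a detection p-value under 0.01 and open circles otherwise. Of the Wnt probes 8 of 28 have a filled circle, against 9 of 11 Frizzled probes.

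The 26 undetected probes had deposited signals between 71.9 and 97.7, against medians of 83.3 to 91.1 over whole arrays. The detection limit passes close to some members. Just outside it lay the 2 probes of Wnt7b, with lowest detection p-values of 0.0175 and 0.0201, and Wnt10b with 0.0213. Just inside it lay Fzd4, whose p-value was 0.00501 with CH, and Dkk1, with 0.00752 on that array. An undetected probe means that its signal did not pass this limit against the negative controls, not that the transcript was absent.

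Across the detected members, PD had the most calls. In the PD term 7 of the 23 detected probes passed (2.56% of all 12049 tested), of which 5 fell and 2 rose (1.78% and 0.78% of all tested). These were all 3 probes of Wnt8a, a probe of Wnt5a and the probe of Fzd7, which fell, and 2 probes of Fzd10, which rose. The median PD effect over the 23 was -0.17, against 0.00 over all probes tested. In the CH term 3 of 23 passed (1.22% of all tested), all of them upward (0.647% of all tested, with 0.573% downward), namely 2 probes of Fzd10 and the probe of Dkk4, which was detected on the CH array alone. The median CH effect was 0.20, against 0.00 over all tested. In the LIF term limma passed 0 of 23 (0.722% of all tested, 0.249% upward and 0.473% downward), and 3 had an unadjusted p under 0.05, as had 858 of the 12049. These probes had first to be detected somewhere, so a member seen on few arrays, such as Dkk4, entered the fit through the array where it was high.

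**Figure D2:**
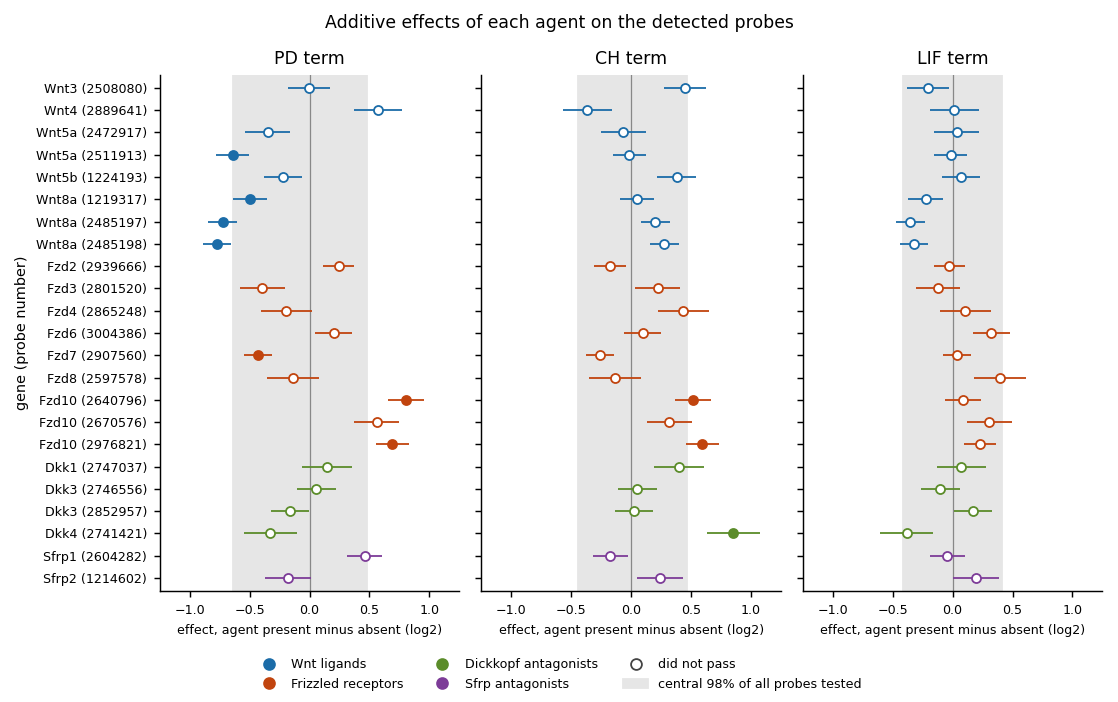
Additive effects of PD, CH and LIF (log2, agent present minus absent, bars are the SE of the fit) on the 23 detected probes, filled where the probe passed. The grey band holds the central 98% of all 12049 probes, and the Wnt8a and Fzd10 probes lie at opposite sides in the PD panel.

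Wnt8a, a canonical ligand expressed in the posterior epiblast and primitive streak of the mouse embryo, was lower on both arrays with PD on each of its 3 probes. Probe ILMN_2485198 had log2 levels of 8.66 with PD, 9.72 with CH, 9.12 with LIF, 8.53 with PCL and 9.30 untreated. Its deposited signals, before normalization, were 401, 818, 621, 404 and 914 in that order. After normalization the PD and PCL arrays were the lowest and the CH array the highest, while before it the untreated array was the highest. Against the untreated array the log2 difference was -0.63 ± 0.12 with PD and -0.77 ± 0.13 with PCL, and its PD effect was -0.77 ± 0.12 (limma, adjusted p = 1.07e-08).

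Probe ILMN_2485197 gave the same order, with 8.58 with PD, 9.51 with CH, 8.96 with LIF, 8.34 with PCL and 9.17 untreated. Its PD effect was -0.73 ± 0.12 (adjusted p = 1.97e-07). The dimmer probe ILMN_1219317 had 6.35 with PD, 6.90 with CH, 6.62 with LIF, 6.12 with PCL and 6.77 untreated. Its PD effect was -0.50 ± 0.14 (adjusted p = 0.0249), a call that was lost on the authors' processed values (adjusted p = 0.142), with all probes in the fit (0.0908) and without the intensity trend (0.0774). Probe sequences were not used here, so the 3 probes may overlap in the transcript. With CH alone Wnt8a was higher by 0.42 ± 0.11, 0.34 ± 0.10 and 0.13 ± 0.14 on these probes in the order given, and none passed in the CH term (adjusted p of 0.322, 0.565 and 0.939). Its LIF effects were -0.32, -0.35 and -0.23, which did not pass either.

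Wnt5a, a ligand known mainly for beta-catenin-independent signalling and axis elongation, also fell with PD. Probe ILMN_2511913 had log2 levels of 6.59 with PD, 7.21 with CH, 7.21 with LIF, 6.63 with PCL and 7.34 untreated. The arrays with PD stood below the other 3, which lay within 0.13 of each other. The PD effect was -0.64 ± 0.14 (limma, adjusted p = 0.000297). The dimmer probe ILMN_2472917 had 4.93 with PD, where it was not detected, 5.21 with CH, 5.31 with LIF, 4.85 with PCL and 5.20 untreated, and its PD effect of -0.35 ± 0.19 did not pass (adjusted p = 0.52).

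Wnt5a is also expressed by fibroblasts, and the cultures held feeder fibroblasts. In bulk RNA, fewer cells of a type and less RNA per cell cannot be told apart. Of 20 feeder fibroblast markers 19 had a probe, and 20 of their 29 probes were detected. Their summed normalized intensity was 9191 with PD, 9350 with CH, 8517 with LIF, 9478 with PCL and 8734 untreated, with Acta2, a smooth muscle actin gene, the brightest. With PD 16 of the 20 were detected, against 20 on each other array, and Col6a2, Pdgfra, Prrx1 and Twist1 were those missed. The PD array also had the fewest detected probes of any kind. Of all 12049 probes detected somewhere it had 10130, against 10480 to 10981 on the other arrays. With PD 3 of the 20 feeder probes passed (2.56% of all probes tested). The receptor gene Pdgfra (-0.90 ± 0.17) and 1 of the 2 detected probes of the collagen Col6a1 (-0.42 ± 0.12) fell, while the crosslinking enzyme Lox rose (0.42 ± 0.12). The collagens Col1a2 and Col3a1 and also Fap, Pdgfrb, Postn and S100a4 were not detected on any array, whereas Col1a1 and Thy1 were detected on all of them. The part of feeder RNA in the Wnt5a difference was not tested.

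Of the remaining ligands, Wnt4, which acts in kidney and gonad development, had log2 levels of 5.44 with PD, 4.51 with CH, 4.89 with LIF, 4.76 with PCL and 4.37 untreated on probe ILMN_2889641. It was detected with PD and LIF but not untreated, so in this normalization it was at least 1.47-fold higher with PD (log2 difference 1.08 ± 0.18). That difference was 0.38 without background correction and 0.50 with an offset of 50, both under the bound. Its second probe was not detected. Its PD effect of 0.57 ± 0.20 did not pass (adjusted p = 0.14), since the PCL array, which also had PD, lay at 4.76. Wnt3, which is required for primitive streak formation, ranged from 5.10 with LIF to 5.76 with CH. Its CH effect of 0.45 ± 0.18 did not pass (adjusted p = 0.269). Wnt5b, a close relative of Wnt5a, ranged from 5.53 with PD to 6.13 with CH, and its CH effect of 0.38 ± 0.16 did not pass (adjusted p = 0.328).

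**Figure D3:**
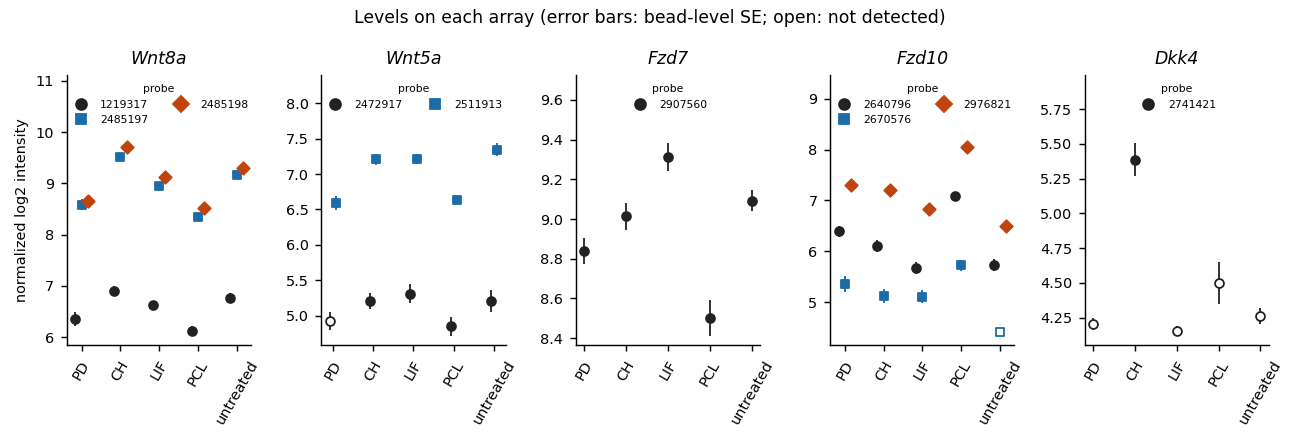
Normalized log2 intensity (vertical axis) of every detected probe of the 5 genes that passed in the fit, on the PD, CH, LIF, PCL and untreated arrays, with bead-level standard errors and open symbols where the probe was not detected. Wnt8a and Wnt5a are lowest on the 2 arrays with PD, Fzd10 is highest on the PCL array, and Dkk4 is detected on the CH array only.

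Fzd10, a Frizzled receptor, was the member with the largest difference among detected probes, and its difference was largest with PCL. Probe ILMN_2976821 had log2 levels of 7.30 with PD, 7.20 with CH, 6.84 with LIF, 8.04 with PCL and 6.49 untreated. The untreated array was the lowest and the PCL array the highest, with PD and CH between. Against the untreated array it was 2.93-fold higher with PCL (log2 difference 1.55 ± 0.12), 1.75-fold with PD (0.81 ± 0.14) and 1.64-fold with CH (0.71 ± 0.12). The difference with LIF was 0.35 ± 0.13. It rose with PD (effect 0.69 ± 0.14, limma, adjusted p = 3.54e-05) and with CH (0.59 ± 0.14, adjusted p = 0.00338), and its LIF effect of 0.23 did not pass.

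Probe ILMN_2640796 had 6.39 with PD, 6.11 with CH, 5.68 with LIF, 7.10 with PCL and 5.74 untreated. Here LIF and untreated were alike and the PCL array was again the highest. It rose with PD (0.80 ± 0.15, adjusted p = 1.34e-05), and with CH its adjusted p of 0.0498 lay at the limit (0.52 ± 0.15). The third probe, ILMN_2670576, had 5.36 with PD, 5.12 with CH, 5.11 with LIF, 5.72 with PCL and 4.41 untreated, where it was not detected. In this normalization it was at least 1.78-fold higher with PCL (log2 difference 1.32 ± 0.12) and at least 1.39-fold with PD. The PCL difference was 0.48 without background correction and 0.65 with an offset of 50, both under the bound. On ILMN_2640796 the PCL difference was 1.36 ± 0.13, and 0.78 without background correction. The PD effect of ILMN_2670576 was 0.56 ± 0.19 and did not pass (adjusted p = 0.0886). The CH calls of Fzd10 were lost on the authors' processed values (adjusted p of 0.103 for ILMN_2976821 and 0.236 for ILMN_2640796) and without the intensity trend (0.0665 and 0.135). That of ILMN_2640796 was also lost with all probes in the fit (0.173) and when arrays were scaled to 1 shared 75th percentile (0.0988). The PD calls of both probes held in these settings. Before normalization the deposited signals of ILMN_2976821 were 195 with PD, 195 with CH, 180 with LIF, 306 with PCL and 182 untreated. On this scale the PCL array stood well above the untreated one, and the PD, CH and LIF arrays lay close to it. Leaving out the untreated array, a setting chosen after seeing the data that allows no test, gave effects on this probe of 0.65 for PD and 0.55 for CH.

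Fzd7, a Frizzled receptor known from human embryonic stem cells, had log2 levels of 8.84 with PD, 9.01 with CH, 9.31 with LIF, 8.50 with PCL and 9.09 untreated. The 2 arrays with PD were the lowest. It fell with PD (effect -0.43 ± 0.12, limma, adjusted p = 0.0139), a call lost on the authors' processed values (adjusted p = 0.0728) and without the intensity trend (0.165). With PCL the difference from untreated was -0.59 ± 0.10.

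The other receptors did not pass for any agent. Fzd4, known as the receptor of Norrin in retinal vessels, had 4.37 with PD, 5.00 with CH, 4.67 with LIF, 4.74 with PCL and 4.31 untreated. In this normalization it was at least 1.08-fold higher with CH, the array on which it was detected. Its second probe was not detected. Fzd2 ranged from 7.30 untreated to 7.76 with PD, while its deposited signals before normalization were 274 untreated and 243 with PD. Fzd6, which acts in planar polarity of the skin, ranged from 5.82 with CH to 6.44 with PCL. Fzd3, which acts in axon guidance, ranged from 4.94 with PD to 5.56 with CH. Fzd8 ranged from 4.41 with PD and with CH to 4.94 with LIF. The receptors thus held members on either side of 0 with PD, where Fzd10 rose and Fzd7 fell.

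Among the Dickkopf genes, Dkk4, an antagonist of the Lrp co-receptors known as a Wnt target, had log2 levels of 4.21 with PD, 5.39 with CH, 4.15 with LIF, 4.50 with PCL and 4.26 untreated. It was detected on the CH array only, and in this normalization it was at least 1.41-fold higher there than untreated. Its CH effect in the fit was 0.85 ± 0.22 (limma, adjusted p = 0.0185). It entered the fit through the CH array alone, and the other 4 levels, PCL with CH included, did not pass the detection limit. This value is therefore a description. Its difference from untreated was 0.41 without background correction, which is under the bound, and 0.51 with an offset of 50, against 1.12 here. The call was lost when arrays were scaled to 1 shared 75th percentile (adjusted p = 0.325), and likewise on the authors' processed values (0.464). Dkk1, an antagonist of the same kind that is needed for head formation, was detected with CH and PCL. It had 4.59 with PD, 4.85 with CH, 4.52 with LIF, 5.20 with PCL and 4.65 untreated. In this normalization it was at least 1.24-fold higher with PCL than untreated (log2 difference 0.55 ± 0.28). Its deposited signals, before normalization, were close, at 96.4 with PCL and 94.7 untreated. The CH effect of Dkk1, 0.40 ± 0.21, did not pass (adjusted p = 0.47). Dkk3, a divergent family member, had 2 detected probes, of which ILMN_2746556 ranged from 5.65 to 5.80 and ILMN_2852957 from 5.66 with PD to 6.16 untreated, and neither passed for any agent.

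The Sfrp genes did not pass for any agent. Sfrp1 had log2 levels of 6.84 with PD, 6.21 with CH, 6.34 with LIF, 6.58 with PCL and 6.31 untreated, so that the arrays with PD were the highest, and its PD effect of 0.46 ± 0.15 missed the limit (adjusted p = 0.0584). Before normalization the untreated array was the highest, with a deposited signal of 168, against 161 with PD and 151 with PCL. Sfrp2 ranged from 4.62 with PD, where it was not detected, to 5.31 with PCL.

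Upstream sequences are shown for 3 members, because TCF/LEF factors are the nuclear end of the pathway that CH acts on. The RefSeq promoter table (GRCm38.p6) held 26 entries for 23 of the 35 genes. Dkk4, Wnt8a and Wnt5a were not searched. The 250 bases before each start were searched on both strands for CTTTGAA and CTTTGAT (TCF/LEF) and for TTCNNNGAA (STAT), whose letters do not overlap with those of the others in these members. A TCF/LEF match was present for 3 of the 23 genes, Dkk1, Wnt5b and Wnt11, against 8.63% of 27025 genes and 7.48% of 32851 entries in the table. A STAT match was present for Wnt5b only, against 8.13% of genes. Matches are in capitals below, and the first line, of Fzd10, holds none.
Fzd10 (250 bases before the start, chr5:128600856-128601105, plus strand): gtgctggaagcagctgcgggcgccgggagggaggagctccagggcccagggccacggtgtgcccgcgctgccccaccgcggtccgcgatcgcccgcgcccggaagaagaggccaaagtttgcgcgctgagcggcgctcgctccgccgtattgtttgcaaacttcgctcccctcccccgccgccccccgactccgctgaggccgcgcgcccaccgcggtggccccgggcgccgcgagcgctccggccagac
Dkk1 (chr19:30549592-30549628, minus strand): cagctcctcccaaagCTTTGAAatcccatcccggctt
Wnt5b (chr6:119449436-119449472, minus strand): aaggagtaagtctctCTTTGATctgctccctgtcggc
The last base of the Dkk1 match lies 111 bases before the start and that of the Wnt5b match 65 bases before the third listed start of that gene. The CH effects were 0.40 for Dkk1 and 0.38 for Wnt5b, which did not pass, and 0.59 and 0.52 for the Fzd10 probes that passed. The other searched members in the fit held no TCF/LEF match and did not pass for CH. Their CH effects were 0.45 for Wnt3, 0.435 for Fzd4, 0.24 for Sfrp2, -0.26 for Fzd7 and -0.36 for Wnt4. Wnt11 was not detected and has no CH effect. A match is a run of letters and not a shown binding site, and its absence from this window says only that these letters are not in it.

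With PCL, the measured difference was past 2-fold for 3 of 19 member probes detected there or untreated (0.966% of 11182 probes), and they were the 3 Fzd10 probes. Of these, ILMN_2976821 and ILMN_2640796 were detected on both arrays, and ILMN_2670576, not detected untreated, is bounded at 1.78-fold. With PD the measured difference was past 2-fold for 1 of 19, Wnt4 (0.675% of 10822 probes), and with CH for 1 of 21, Dkk4 (0.168% of 11306). Neither was detected untreated, and their bounds in this normalization, 1.47-fold and 1.41-fold, do not reach 2-fold. With LIF it was 0 of 20 (0.08% of 11255), and among probes detected on both the LIF and the untreated array the widest difference was 0.35 ± 0.13, for Fzd10 probe ILMN_2976821. The combination was set beside the sum of the single agents as a description, since this departure is the error of the fit. For Wnt8a probe ILMN_2485198 PCL gave -0.77 where the single differences summed to -0.40. For Fzd10 probe ILMN_2976821 it gave 1.55 where they summed to 1.87. The departures of the 23 ran from -1.35 for Wnt4, which was not detected with CH, with PCL or untreated, to 1.04 for Sfrp2, and their median size was 0.377, against 0.294 over all probes tested. With sign kept, their median was -0.289, against -0.005 over all probes tested.

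Genes elsewhere in the pathway were read from a list of 66 genes, of which 62 had a probe and 45 were detected on some array (65 probes). With CH 6 of these probes rose and 1 fell (0.647% and 0.573% of all probes tested). With PD 2 rose and 5 fell (0.78% and 1.78% of all tested), and with LIF 1 rose (0.249% of all tested). The median effects were 0.08 for CH, 0.01 for PD and 0.06 for LIF. The CH calls upward were the target genes Sp5 (2.93 ± 0.12), Axin2, Tnfrsf19 (1.17 ± 0.13), Cdx2 (0.81 ± 0.21) and Ccnd1 (0.37 ± 0.10 on 1 of its 3 probes), and Ror2, a receptor for Wnt5a (0.68 ± 0.13, adjusted p = 0.000127). Cdx2 was detected on the CH and PCL arrays only, so it entered the fit through the arrays where it was high. Its difference from untreated was 0.47 ± 0.23 with CH alone, so its value is a description. The transcriptional repressor Tcf7l1 fell with CH (-0.67 ± 0.19, adjusted p = 0.0477) and rose with PD (0.63 ± 0.19) on the dim probe ILMN_2771781. That probe was detected with PD, LIF and PCL but not with CH or untreated. It entered the fit through the arrays where it was high, so these values are a description. The much brighter Tcf7l1 probe ILMN_3109289 passed for neither, with effects of -0.11 for CH and 0.18 for PD.

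With PD, Tnfrsf19 (-0.73 ± 0.13), Ccnd1 (-0.44 ± 0.10 and -0.42 ± 0.12 on 2 of its 3 probes), the TCF/LEF factor Lef1 (-0.83 ± 0.18 on its 1 detected probe) and the corepressor Tle4 (-0.62 ± 0.11 on 1 of its 3 probes) fell, and the beta-catenin cofactor Bcl9l rose (0.56 ± 0.14). Sp5 was the list member that rose with LIF (0.76 ± 0.12). Porcn and Wls, which modify and carry Wnt proteins for secretion, did not pass for any agent. Wls and Porcn probe ILMN_3093626 were detected on all arrays, with CH effects of -0.20 and 0.32, and the other Porcn probe was detected with PCL only. The co-receptor Lrp5 was detected on all arrays with effects between -0.04 and 0.32, and Lrp6 on 2 arrays with effects between -0.02 and 0.03, and neither passed. Of the R-spondins, which enhance Wnt signalling, Rspo3 was detected and the other 3 were not.

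**Figure D4:**
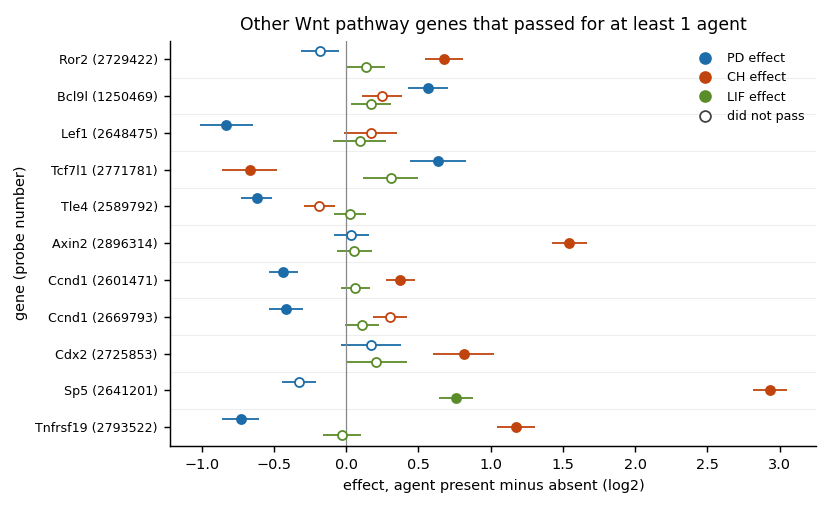
Additive effects of PD, CH and LIF (log2, agent present minus absent, bars are the SE of the fit) on the other Wnt pathway genes with a call for at least 1 agent, filled where the probe passed. Sp5 has the largest CH effect of those plotted (2.93). Tnfrsf19, 1 Ccnd1 probe and the plotted Tcf7l1 probe passed for both PD and CH, with effects of opposite sign. That Tcf7l1 probe was not detected with CH or untreated. Other plotted probes, such as those of Lef1 and Ror2, also have PD and CH effects of opposite sign but did not pass for both.

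Markers of the epiblast and of mesendoderm also had calls. Pou5f1 was detected on all arrays, with log2 differences of -0.39 and -0.19 with PD on its 2 probes, which did not pass. Of 14 detected epiblast marker probes 5 fell with PD and 1 rose (1.78% and 0.78% of all probes tested). They included Fgf5 (-1.09 ± 0.12), Utf1 (-0.65 ± 0.11) and 1 of the 2 Sox2 probes (-0.52 ± 0.13) downward and Nanog upward (0.49 ± 0.11). The other 2 that fell were Pou3f1 (-0.69 ± 0.12) and Tdgf1 (-0.47 ± 0.14). With CH 3 fell (0.573% of all tested), Pou3f1 (-1.06 ± 0.12), Fgf5 (-0.48 ± 0.12) and Otx2 (-0.45 ± 0.11). Of 9 detected mesendoderm marker probes 2 fell with PD (1.78% of all tested), Eomes (-1.01 ± 0.14) and Foxa2 (-0.85 ± 0.16). With CH 4 of these rose (0.647% of all tested), namely Eomes (1.37 ± 0.14), Gsc (0.92 ± 0.12) and both probes of Mixl1 (1.44 ± 0.16 and 1.07 ± 0.18). The median CH effect over the 9 mesendoderm probes was 0.01, so the rise was not shared by the list as a whole. With LIF Gsc fell (-0.49 ± 0.12). Lhx1 passed for no agent, and its log2 difference with PCL was -1.02. The part of these differences in the levels of the ligands and receptors was not tested.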

How the data were processed

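Total RNA of mouse epiblast stem cells was measured on 5 bead arrays, 1 per condition. Per the file headers, the deposited scanner tables hold for each of 25697 probes an intensity, a standard error over beads and a detection p-value, exported with BeadStudio, per the submitters' processing notes. The authors also deposited whole-number processed intensity values with a median of 65 on each array, of unstated normalization, used as an alternative after raising empty cells and lower values to 16. Intensities were corrected with normexp in limma 3.58.1 (R 4.3.3), with controls inferred from the detection p-values and an offset of 16, then quantile-normalized and taken to log2. The offset compresses differences of dim probes. Bead errors were carried through each array's map from signal to log2 level. Gene names came from the platform annotation, with 23978 probes having 1 symbol, 0 several and 1719 none.

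Differences from the untreated array are in log2 and carry no p-value. For a probe detected on just 1 array of a pair, the fold is a bound against the higher of the lowest detected level and the probe's own level on the other array. The additive fit used lmFit and eBayes with an intensity trend, and its prior degrees of freedom were infinite. Apart from words such as brighter or dimmer and the sum over feeder markers, levels of different probes were not set against each other. The members and lists were chosen with earlier results of these data known. All members were named, and levels on all 5 arrays were given for genes with a probe at least 1.5-fold different or passing in the fit. Genes of other lists were named where they passed or reached 2-fold, or as checks of agents and cells, and a few undetected or unpassed pathway genes were named after their values were seen.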

Additional observations from a re-analysis of the deposited data

How the results depend on the processing

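Each of the 10 effects that passed kept its direction in all 85 alternative values. Of these, 75 carry a test and 13 no longer passed, and 10, without the untreated array, carry none. The 7 calls for PD came to between 5 and 8, and LIF had 0 throughout. The 3 calls for CH became 1 after scaling to a common 75th percentile, 1 without the intensity trend and 0 on the authors' processed values (limma, 7 at an unadjusted p under 0.05). Over all probes the 308, 147 and 87 calls for PD, CH and LIF were 192, 27 and 32 on the authors' values and 220, 52 and 18 without the trend, and CH had 69 after 75th percentile scaling. The 2-fold counts of members moved with the treatment of dim signals. Without background correction, and with an offset of 50, they were 0 for PD, 0 for CH and 1 for PCL, in place of 1, 1 and 3. Scaling to a common 75th percentile gave 2 for PD and 3 for CH, and the authors' processed values gave 0 for PD and 0 for CH. Over all probes the 2-fold counts of 73, 19, 9 and 108 for PD, CH, LIF and PCL were 25, 7, 3 and 32 without background correction and 190, 78, 50 and 244 on the authors' values. At 1.5-fold the member counts were 6 for PD, 4 for CH, 1 for LIF and 8 for PCL, against 584, 340, 194 and 711 of all probes. They were 4 higher and 2 lower for PD, 4 higher for CH, 1 higher for LIF, and 3 higher and 5 lower for PCL. With the mean of the 2 other single-agent arrays as the base PD had 0, and with 1 probe per gene PCL had 1, since fewer probes were counted. The cause was not tested for the rest. A detection p-value under 0.05 raised the 23 detected probes to 30. No paired analysis was possible because each condition has 1 array, and leaving out an array leaves the fit no residual degree of freedom. Bead errors leave out culture, extraction and hybridisation, and members near the background have the least certain differences.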
